A study of Mus musculus with 12 samples.

Results

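The interleukin 1 (IL-1) family was followed here through 10 genes, chosen by symbol from the 54532 genes of each count table. They were the ligands Il1a, Il1b, Il33 and Il18, the receptor antagonist Il1rn, the receptor chains Il1r1, Il1r2, Il1rap and Il1rl1, and the binding protein gene Il18bp. All 10 were found and all 10 passed the filter on low counts. The RNA came from the colon of 12 male C57BL/6 mice, 3 in each of 4 groups, which were 6 weeks old on arrival and had 1 week of adaptation. The DSS group received 3% (w/v) dextran sulfate sodium (DSS), a polymer that damages the lining of the colon, in the drinking water for 5 days, and the Con group did not. The UA+DSS group received DSS and ursolic acid (UA, a plant triterpenoid) at 200 mg/kg by daily gavage from 24 hours before DSS, for 7 days by the methods and 9 days by the discussion of the study. The DSS+UA group received DSS and the same dose from 3 days after DSS began, for 4 days by the methods and 5 days by the discussion. The Con and DSS groups received vehicle by gavage in the methods, whereas the labels call the Con mice untreated. DSS was drunk freely, so the dose taken varied with water intake, and the segment of colon used for RNA is not given in the sources used here.

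IL-1α and IL-1β bind the receptor IL1R1, which recruits the accessory chain IL1RAP and signals through MyD88, IRAK kinases and TRAF6 to NF-κB. The antagonist encoded by Il1rn occupies IL1R1 without signalling, and IL1R2 is a decoy that binds IL-1 but lacks the signalling domain. IL-33 is a nuclear protein of epithelial and stromal cells that is released on damage and binds ST2, the product of Il1rl1, on mast cells, regulatory T cells and type 2 lymphoid cells. IL-18 is made in the gut largely by epithelial cells and is neutralised by IL18BP. IL-1β and IL-18 are made as precursors that inflammasome caspases cut, so the mRNA of either gene is not a measure of the active cytokine.

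Each library held 15566216 to 19498383 counts (median 18569670). Levels are given as CPM (each gene's share of its library's counts on a common scale, the library sizes corrected by TMM factors), and differences as log2 fold changes of edgeR's quasi-likelihood test, adjusted by the Benjamini-Hochberg method over the 17658 genes tested, with a gene called under 0.05. Libraries carry the name of their group and their replicate number. DSS 2 stood apart from the other DSS libraries, with a sum of 17888 CPM over 8 neutrophil markers against 903 and 1005 CPM, so results are also given without it. The libraries also differed in a score for colon position, which was the mean log2 CPM of 5 rectal-side Hox genes less that of 6 caecal-side ones. It was -5.70 to -4.16 in the UA+DSS group, 4.11 to 5.06 in the DSS+UA group, 0.366 to 3.10 in the DSS group and 5.53, -3.03 and -1.83 in the Con group. Position and UA regimen therefore cannot be told apart, and values with this score as a covariate stand beside the results where they change a call or move it. All 8 epithelial markers had counts in every group, with sums of 4787 to 23016 CPM per library. In bulk tissue, fewer cells of a type and less RNA per cell cannot be told apart.

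In the DSS group 8 of the 10 genes rose over the Con group. They were Il1a, Il1b, Il1rn, Il33, Il1r1, Il1r2, Il1rap and Il1rl1, while Il18 and Il18bp did not pass the test. Of all tested genes, 26.5% were called in this comparison and 13.9% were called higher. The median log2 fold change was 3.60 over the 10 genes and -0.034 over all genes, and the 3 DSS libraries lay above the 3 Con libraries for 8 of 10 genes, against 41.3% of all genes with no overlap in either direction. In the UA+DSS group these 8 genes were lower than in the DSS group, where 18.7% of all genes were called, 8.21% higher and 10.5% lower. There the median log2 fold change was -3.11 over the 10 genes and -0.019 over all genes, and 8 genes had no overlap, against 42.8% of all genes. In the DSS+UA group 2 of 10 genes, Il33 and Il1r1, were lower than in the DSS group, where 7.54% of all genes were called, 2.54% higher and 5.0% lower. The medians of that comparison were -2.30 and 0.020, and 5 genes had no overlap, against 34.7% of all genes. The comparisons with the DSS group share its 3 libraries, so they are not independent of each other. With the position score as a covariate, the calls were 8 for DSS against Con, 1 for UA+DSS against DSS and 2 for DSS+UA against DSS.

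**Figure D1:**
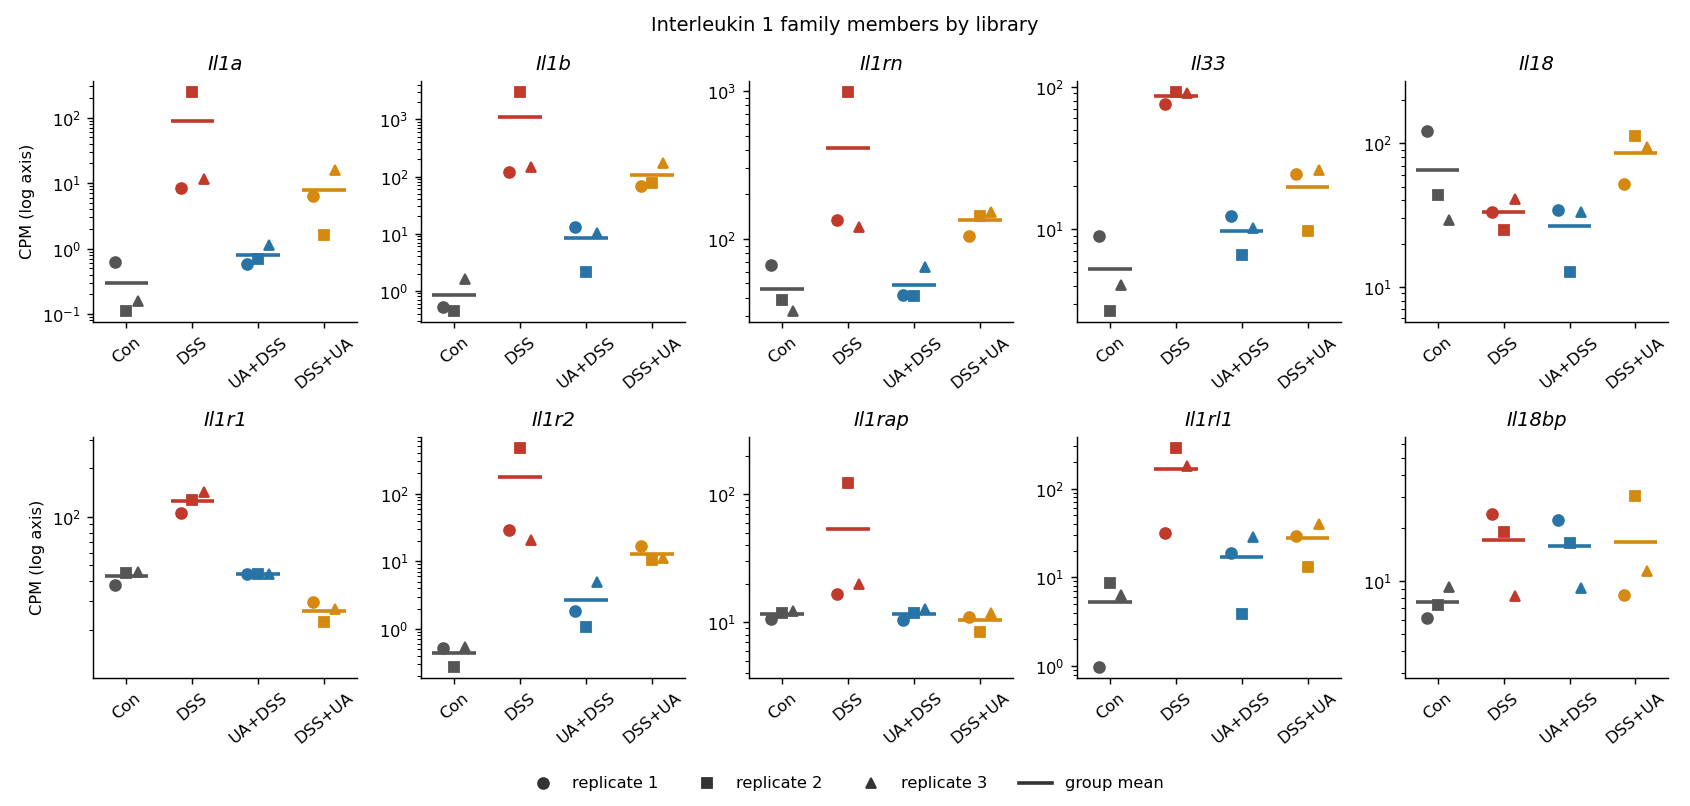
CPM of the 10 genes in each of the 12 libraries, on log axes, with the symbol giving the replicate number and the bar the group mean of 3 libraries. The DSS 2 library was far above DSS 1 and DSS 3 for Il1a, Il1b, Il1rn, Il1r2 and Il1rap, but the 3 DSS libraries lay close together for Il33 and Il1r1.

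Il1b (ENSMUSG00000027398, GRCm38 chr2:129364570-129371139, minus strand) encodes IL-1β, made mainly by neutrophils, monocytes and macrophages. It was at 0.517, 0.444 and 1.6 CPM in the Con libraries and at 120, 3011 and 150 CPM in DSS 1, 2 and 3. The Con level rests on 8 to 30 counts per library, 48 in all. It was at 13, 2.12 and 10.5 CPM in the UA+DSS libraries and at 68.0, 77.8 and 171 CPM in the DSS+UA libraries. Every UA+DSS library lay between the Con and the DSS libraries, whereas the DSS+UA libraries overlapped DSS 1 and 3. The log2 fold change was 10.31 (SE 1.66, edgeR adjusted p = 0.00332) for DSS against Con and -7.00 (SE 1.42, edgeR adjusted p = 0.0137) for UA+DSS against DSS. For DSS+UA against DSS it was -3.37 (SE 1.19, edgeR adjusted p = 0.0943). DSS 2 held 22.3 times the mean of DSS 1 and 3. Without it the log2 fold changes were 7.29, -3.98 and -0.34 in these 3 comparisons, so the gap between the DSS+UA and DSS groups was that of DSS 2. Without UA+DSS 2, the library with the least Il1b of its group, UA+DSS against DSS was -6.53 and the call was lost (edgeR adjusted p = 0.0691, range 0.00771 to 0.156 over the alternatives), and with the position score it was -7.33 (edgeR adjusted p = 0.156). Without Con 3 the log2 fold change of DSS against Con was 11.12.

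Il1a (ENSMUSG00000027399, chr2:129299610-129309972, minus strand), the neighbour of Il1b, encodes IL-1α, which acts as an alarm signal from dying cells. It was at 0.621, 0.111 and 0.160 CPM in the Con libraries, a total of 17 counts, and at 8.51, 246 and 11.6 CPM in the DSS libraries. It was at 0.577, 0.687 and 1.12 CPM in the UA+DSS libraries, below every DSS library. In the DSS+UA libraries it was at 6.37, 1.61 and 15.8 CPM, which overlapped the DSS group. In log2 units the fold change was 8.17 (SE 1.64, edgeR adjusted p = 0.00700) for DSS against Con, -6.77 (SE 1.5, edgeR adjusted p = 0.0166) for UA+DSS against DSS and -3.48 (SE 1.24, edgeR adjusted p = 0.0963) for DSS+UA against DSS. Without DSS 2, which held 24.4 times the mean of the other DSS libraries, these were 5.03, -3.64 and -0.32. The call in UA+DSS against DSS was lost without any one of the UA+DSS libraries (log2 fold change -7.11 to -6.59, edgeR adjusted p = 0.0534 to 0.0823, range 0.00967 to 0.339 over all alternatives), and with the position score, at -5.22 (edgeR adjusted p = 0.339). Without Con 1 the log2 fold change of DSS against Con was 9.27. Of the exon bases of Il1a, 11.2% overlap Gm14023 on the other strand. On either strand, 9.14% of its stretches of 50 bases occur in transcripts of other genes. That search included Gm14023, so both shares can cover the same bases. The use of strand in counting is not given, so the counts of Il1a are uncertain. Gm14023 itself had mean levels of 0.524 to 1.22 CPM in the 4 groups.

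The neutrophil marker genes moved with both ligands. Their summed level was 10.2 to 115 CPM in the Con group, 903 to 17888 CPM in the DSS group, 30.7 to 121 CPM in the UA+DSS group and 407 to 1019 CPM in the DSS+UA group. Outside the DSS group much of this sum was 1 gene, Ly6g, at 8.26 to 112 CPM in the Con group, 190 to 300.5 in the DSS group, 12.0 to 54.5 in the UA+DSS group and 274 to 390 in the DSS+UA group. The other 7 markers summed to 1.89 to 2.67 CPM in the Con group, 617 to 17587 in the DSS group, 15.9 to 66.6 in the UA+DSS group and 134 to 701 in the DSS+UA group. In DSS+UA against DSS the log2 fold change of Ly6g was 0.33 (edgeR adjusted p = 0.829). Of the 8 markers, 7 rose in DSS against Con, 8 fell in UA+DSS against DSS and 1 fell in DSS+UA against DSS. Over all genes 13.9% were called higher in the first comparison, and 10.5% and 5.0% lower in the others. The 8 macrophage and monocyte markers summed to 104 to 259 CPM in the Con group, 623 to 1177 CPM in the DSS group, 188 to 440 CPM in the UA+DSS group and 209 to 696 CPM in the DSS+UA group. DSS 1 had the highest macrophage sum of all libraries and DSS 2 the lowest of the DSS group, the reverse of their order in Il1b. The part of these cells in the Il1a and Il1b differences was not tested.

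**Figure D2:**
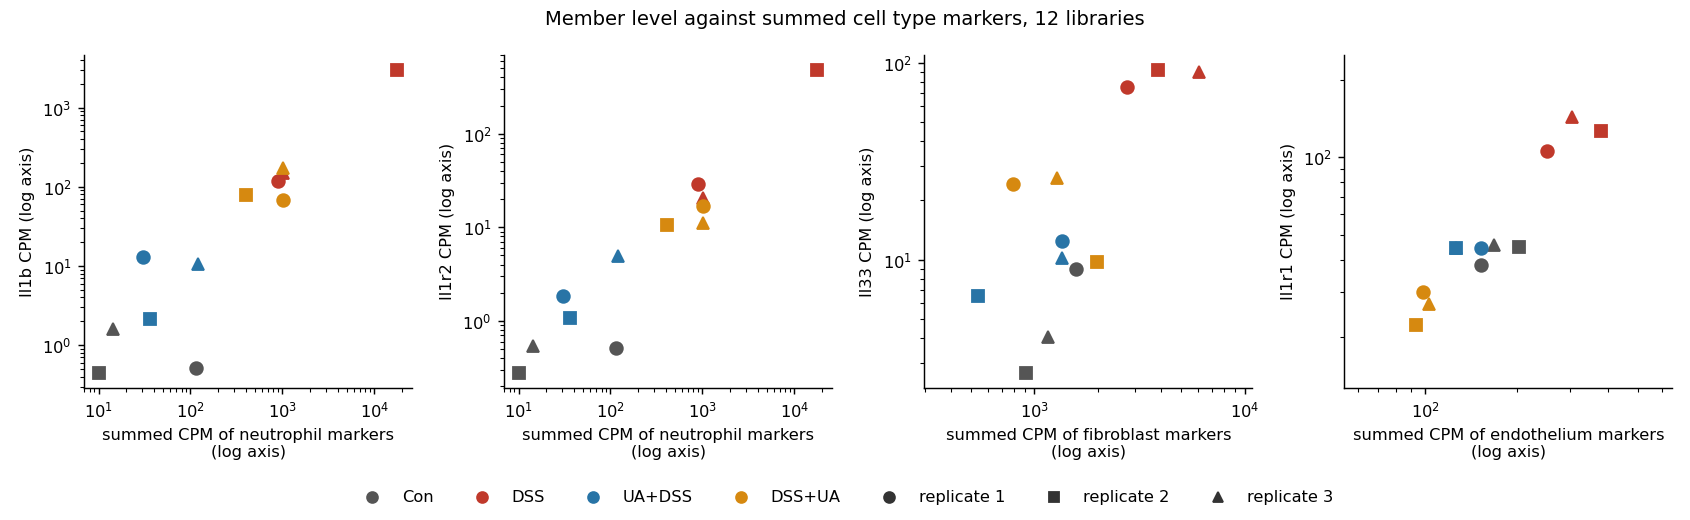
CPM of Il1b, Il1r2, Il33 and Il1r1 on log axes against the summed CPM of neutrophil, fibroblast or endothelial markers in the 12 libraries, coloured by group. DSS 2, at 17888 CPM of neutrophil markers, held the most Il1b and Il1r2, while the 3 DSS libraries were the highest for Il33 beside fibroblast markers and for Il1r1 beside endothelial markers.

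The promoters of Il1a, Il1b and Il33 are shown because these ligands rose with DSS and each has the letters of a TATA box where one is usually placed. They are the 250 bases before the RefSeq start (GRCm38.p6), read 5′ to 3′ on the strand of the gene, with capitals marking the matches of the motifs named after them.
Il1a, chr2:129309973-129310222, minus strand: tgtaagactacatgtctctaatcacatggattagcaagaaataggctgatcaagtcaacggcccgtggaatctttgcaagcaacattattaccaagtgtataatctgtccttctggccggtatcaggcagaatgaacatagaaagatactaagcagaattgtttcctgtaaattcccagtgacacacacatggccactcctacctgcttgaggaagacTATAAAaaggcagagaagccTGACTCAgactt
Il1b, chr2:129371140-129371389, minus strand: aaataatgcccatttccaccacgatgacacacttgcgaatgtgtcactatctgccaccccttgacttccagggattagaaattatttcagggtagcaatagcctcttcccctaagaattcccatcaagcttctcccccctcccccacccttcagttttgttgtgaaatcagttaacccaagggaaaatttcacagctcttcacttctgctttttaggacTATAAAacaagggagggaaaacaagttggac
Il33, chr19:29945540-29945789, plus strand: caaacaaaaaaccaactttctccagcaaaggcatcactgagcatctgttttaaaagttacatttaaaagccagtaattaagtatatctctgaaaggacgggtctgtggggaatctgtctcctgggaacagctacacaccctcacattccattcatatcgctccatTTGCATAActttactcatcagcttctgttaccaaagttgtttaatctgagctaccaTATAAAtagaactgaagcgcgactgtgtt
The letters TATAAA begin 32 bases before the start of Il1a, 31 before that of Il1b and 29 before the second of the 2 starts of Il33. Searched on both strands and at any place, TATAAA occurs in 12.4% of the 32851 promoter windows of this length. These promoters were chosen for this match, so the share is no test of them. The Il1a promoter also holds TGACTCA, a match of the AP-1 motif TGANTCA, 12 bases before the start, and the Il33 promoter TTGCATAA, a match of the C/EBP motif TTGCNNAA, 85 bases before it. These motifs occur in 6.75% and 9.56% of the windows. The NF-κB motif, searched as GGGA and CC with 4 bases between them, was present in 17.6% of the windows and was matched among the 10 genes before a start of Il1rn and of Il1rap, at 54 and 119 bases. The matches are a description of these windows and not of bound sites.

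Il1rn (ENSMUSG00000026981, chr2:24336853-24351494, plus strand) encodes the IL-1 receptor antagonist. It was at 67.0, 38.4 and 32.5 CPM in the Con libraries, 135, 986 and 120 CPM in the DSS libraries, 41.5, 40.8 and 64.5 CPM in the UA+DSS libraries and 105, 143 and 153 CPM in the DSS+UA libraries. The UA+DSS libraries overlapped the Con libraries, and the DSS+UA libraries overlapped DSS 1 and 3. The log2 fold change was 3.17 (SE 0.75, edgeR adjusted p = 0.0130) for DSS against Con and -3.08 (SE 0.74, edgeR adjusted p = 0.0208) for UA+DSS against DSS. For DSS+UA against DSS it was -1.63 (SE 0.70, edgeR adjusted p = 0.150). Without DSS 2 these were 1.47, -1.38 and 0.082. The first call was lost without Con 2 (3.06, edgeR adjusted p = 0.0531, range 0.00593 to 0.0676 over the alternatives) and the second without any one UA+DSS library (-3.33 to -2.96, edgeR adjusted p = 0.0568 to 0.0963, range 0.00937 to 0.237 over the alternatives), or with the position score (-2.43, edgeR adjusted p = 0.237). The 8 markers of squamous epithelium, which also expresses Il1rn and Il1f9, moved beside it. They summed to 1.39 to 3.26 CPM in the Con group, 14.9 to 60 in the DSS group, 1.06 to 2.50 in the UA+DSS group and 9.84 to 34.2 in the DSS+UA group. Of the 4 that were tested, 3 rose in DSS against Con, where 13.9% of all genes were called higher. In UA+DSS against DSS 3 fell, where 10.5% of all genes were called lower. Their part in the Il1rn differences was not tested.

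The agonist rose more than its antagonist. Within each library, the log2 ratio of Il1b to Il1rn counts was -6.95, -6.35 and -4.32 in the Con group and -0.168, 1.61 and 0.312 in the DSS group. It was -1.67, -4.24 and -2.62 in the UA+DSS group and -0.630, -0.877 and 0.160 in the DSS+UA group. The Con libraries were the lowest of all, and every DSS library lay above every UA+DSS library. The means ± SD were -5.87 ± 1.38, 0.585 ± 0.920, -2.84 ± 1.30 and -0.449 ± 0.541 (n = 3 each), and the 4 groups differed (F = 20.9, exact permutation p = 0.000195, adjusted over 4 ratios 0.000779). A ratio of counts depends on gene length, so only its difference between groups is read. F stayed between 14.1 and 29.0 without any 1 library. None of the ratios was tested with the position score.

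**Figure D3:**
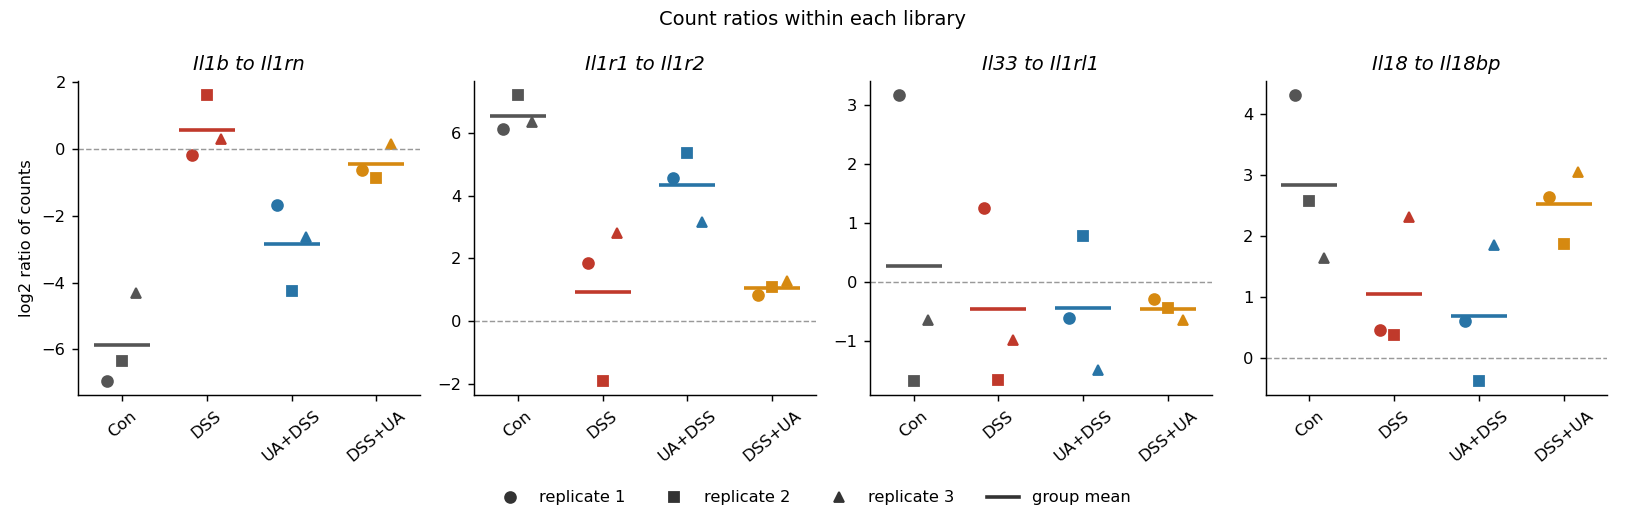
Log2 ratio of the counts of a ligand or receptor to those of its antagonist, decoy, receptor or binding protein in each library, with the bar at the group mean of 3 libraries and a dashed line at equal counts. The Il1b to Il1rn ratio was lowest and the Il1r1 to Il1r2 ratio highest in the 3 Con libraries, while the groups overlapped for Il33 to Il1rl1 and Il18 to Il18bp.

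Il1r1 (ENSMUSG00000026072, chr1:40225080-40317257, plus strand), the signalling receptor of IL-1, had the smallest fold of the 8 called genes in DSS against Con and the smallest SE of all 10. It was at 38.1, 45.0 and 45.6 CPM in the Con libraries and at 106, 127 and 143 CPM in the DSS libraries. It was at 44.5 CPM in each of the 3 UA+DSS libraries and at 29.9, 22.2 and 26.8 CPM in the DSS+UA libraries. All DSS libraries were above all others, the UA+DSS libraries lay within the range of the Con libraries, and all DSS+UA libraries were below all others. The fitted log2 fold change was 1.55 (SE 0.16, edgeR adjusted p = 0.000833) for DSS against Con, -1.50 (SE 0.15, edgeR adjusted p = 0.00378) for UA+DSS against DSS and -2.26 (SE 0.16, edgeR adjusted p = 0.000268) for DSS+UA against DSS. DSS 2 held 1.02 times the mean of DSS 1 and 3. These 3 calls held under all 21 alternatives that were run for each, with edgeR, DESeq2 or limma-voom adjusted p of at most 0.0145, 0.0382 and 0.0211. Il1r1 was also lower in the DSS+UA group than in the Con group (-0.71, SE 0.15, edgeR adjusted p = 0.0132), a call lost with the position score (-0.53, edgeR adjusted p = 0.0630) and without DSS+UA 3 (edgeR adjusted p = 0.0518, range 0.00162 to 0.0630 over the alternatives). It was higher in the UA+DSS group than in the DSS+UA group (0.76, SE 0.15, edgeR adjusted p = 0.0115). That call was lost with the position score (0.38, edgeR adjusted p = 0.563) and without UA+DSS 2 (edgeR adjusted p = 0.0510, range 0.000585 to 0.563 over the alternatives).

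Il1r1 is expressed by many stromal cells and by endothelium, and both marker lists moved beside it. The 6 endothelial markers summed to 152 to 204 CPM in the Con group, 251 to 378 CPM in the DSS group, 126 to 153 CPM in the UA+DSS group and 92.9 to 103 CPM in the DSS+UA group. Of these markers, 3 rose in DSS against Con, 5 fell in UA+DSS against DSS, 6 fell in DSS+UA against DSS and 4 fell in DSS+UA against Con. Over all genes 13.9% were called higher in the first comparison, and 10.5%, 5.0% and 8.95% lower in the others. The 8 fibroblast markers summed to 909 to 1580 CPM in the Con group, 2769 to 6035 CPM in the DSS group, 540 to 1358 CPM in the UA+DSS group and 792 to 1979 CPM in the DSS+UA group. For both lists all DSS libraries lay above all other libraries, and for the endothelial list all DSS+UA libraries lay below all others, as for Il1r1. The 6 smooth muscle markers summed to 1101 to 3497 CPM in the Con group, 674 to 1477 CPM in the DSS group, 1157 to 2474 CPM in the UA+DSS group and 447 to 876 CPM in the DSS+UA group. Their part in the Il1r1 differences was not tested.

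Il1r2 (ENSMUSG00000026073, chr1:40074079-40125231, plus strand), the decoy receptor carried by neutrophils among other cells, followed Il1b over the libraries more closely than it followed Il1r1, which lies nearby on the chromosome. It was at 0.517, 0.277 and 0.535 CPM in the Con libraries, a total of 25 counts, and at 29.2, 482 and 20.6 CPM in the DSS libraries. It was at 1.86, 1.06 and 5.0 CPM in the UA+DSS libraries and at 16.9, 10.5 and 11.1 CPM in the DSS+UA libraries. None of the 4 groups overlapped, in the order Con, UA+DSS, DSS+UA, DSS. The log2 fold change was 8.62 (SE 1.43, edgeR adjusted p = 0.00368) for DSS against Con, -6.05 (SE 1.23, edgeR adjusted p = 0.0137) for UA+DSS against DSS and -3.79 (SE 1.09, edgeR adjusted p = 0.0572) for DSS+UA against DSS. Without DSS 2, at 19.4 times the mean of the other DSS libraries, these were 5.79, -3.23 and -0.94. The second call was lost without UA+DSS 2 (-5.67, edgeR adjusted p = 0.0723, range 0.00640 to 0.191 over the alternatives) and with the position score (-5.73, edgeR adjusted p = 0.191), and without UA+DSS 3 the value was -6.92. The third comparison was called without DSS 1 (-4.28) or DSS 3 (-4.30). The Pearson correlation of log2 CPM over the 12 libraries was 0.972 between Il1r2 and Il1b and 0.488 between Il1r2 and Il1r1, where the libraries of a group share their treatment.

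The log2 ratio of Il1r1 to Il1r2 counts was 6.13, 7.21 and 6.34 in the Con libraries, 1.86, -1.92 and 2.79 in the DSS libraries, 4.56, 5.35 and 3.15 in the UA+DSS libraries and 0.820, 1.08 and 1.27 in the DSS+UA libraries. DSS 2 was the only library with more counts of the decoy than of the signalling receptor, but counts depend on gene length. With CPM divided by exon length in kilobases, the decoy was also the higher in the 3 DSS+UA libraries. There it was at 8.86 against 4.69, 5.51 against 3.49 and 5.81 against 4.21. The 4 groups differed (F = 11.4, exact permutation p = 0.00188, adjusted over 4 ratios 0.00377), with F between 7.83 and 32.2 without any 1 library. The mean was 0.911 ± 2.50 in the DSS group and 1.06 ± 0.226 in the DSS+UA group (SD, n = 3 each), a difference smaller than the spread between the DSS libraries.

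Il1rap (ENSMUSG00000022514, chr16:26581704-26730117, plus strand), the accessory chain shared by the receptors of IL-1, IL-33 and IL-36, was at 10.7, 11.9 and 12.3 CPM in the Con libraries. It was at 16.6, 123 and 20 CPM in the DSS libraries, at 10.5, 11.9 and 12.6 CPM in the UA+DSS libraries and at 11.1, 8.47 and 11.9 CPM in the DSS+UA libraries. The 3 DSS libraries lay above all others, and the other 3 groups overlapped. In log2 terms the change was 2.20 (SE 0.63, edgeR adjusted p = 0.0286) for DSS against Con and -2.19 (SE 0.63, edgeR adjusted p = 0.0381) for UA+DSS against DSS. For DSS+UA against DSS it was -2.35 (SE 0.64, edgeR adjusted p = 0.0506). Without DSS 2, at 6.75 times the mean of the other DSS libraries, these were 0.65 (edgeR adjusted p = 0.0517), -0.65 (edgeR adjusted p = 0.0745) and -0.79, so the size of the difference was that of 1 library and the calls were lost. The first call was also lost without any one Con library (2.14 to 2.23, edgeR adjusted p = 0.0687 to 0.0816, range 0.00160 to 0.110 over the alternatives). The second held in 8 of 21 alternatives and was lost, among others, without Con 2, Con 3, DSS+UA 1, DSS+UA 3 or any one UA+DSS library (-2.25 to -2.11, edgeR adjusted p = 0.0539 to 0.126, range 0.00237 to 0.215 over the alternatives). It was -2.42 with the position score (edgeR adjusted p = 0.215). The third was called without DSS 1 (-2.76) or DSS 3 (-2.73), and by DESeq2 (adjusted p = 0.00170).

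Il33 (ENSMUSG00000024810, chr19:29925114-29960718, plus strand) was the ligand with the least spread between the DSS libraries relative to its mean. It was at 9.0, 2.66 and 4.06 CPM in the Con libraries and at 75.4, 91.9 and 89.8 CPM in the DSS libraries. It was at 12.4, 6.56 and 10.2 CPM in the UA+DSS libraries and at 24.2, 9.71 and 25.9 CPM in the DSS+UA libraries. The 3 DSS libraries were far above all others, and the UA+DSS libraries overlapped both the Con and the DSS+UA libraries. The mean was 5.24 ± 3.33 CPM in the Con group, 85.7 ± 8.96 in the DSS group, 9.72 ± 2.94 in the UA+DSS group and 19.9 ± 8.90 in the DSS+UA group (SD, n = 3 each). The log2 fold change was 4.03 (SE 0.50, edgeR adjusted p = 0.00135) for DSS against Con, -3.14 (SE 0.48, edgeR adjusted p = 0.00800) for UA+DSS against DSS and -2.10 (SE 0.46, edgeR adjusted p = 0.0285) for DSS+UA against DSS. DSS 2 held 1.11 times the mean of DSS 1 and 3, and without it the values were 3.97, -3.09 and -2.03. The third call was lost without DSS 2 (edgeR adjusted p = 0.0681), DSS+UA 2 (-1.81, edgeR adjusted p = 0.0805) or DSS+UA 3 (-2.32, edgeR adjusted p = 0.0981), over a range of 0.000202 to 0.0981. With the position score the second was -2.09 and lost its call (edgeR adjusted p = 0.109, range 2.74e-09 to 0.109 over the alternatives), while the third was -2.62 and kept it (edgeR adjusted p = 0.0238). Without Con 1 the log2 fold change of DSS against Con was 4.67.

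Il1rl1 (ENSMUSG00000026069, chr1:40429570-40465415, plus strand) encodes ST2, the IL-33 receptor, including a soluble form. It was at 0.983, 8.54 and 6.36 CPM in the Con libraries, 31.4, 290 and 177 CPM in the DSS libraries, 18.9, 3.81 and 28.4 CPM in the UA+DSS libraries and 29.4, 13.2 and 40.3 CPM in the DSS+UA libraries. Every DSS library was above every Con and every UA+DSS library, but DSS 1 lay below DSS+UA 3. Con 1, the Con library with the score of the rectal side, held the least. The fitted log2 fold change was 4.97 (SE 1.07, edgeR adjusted p = 0.00893) for DSS against Con and -3.28 (SE 0.98, edgeR adjusted p = 0.0417) for UA+DSS against DSS. For DSS+UA against DSS it was -2.59 (SE 0.95, edgeR adjusted p = 0.104). The second call held in 8 of 21 alternatives and was lost without DSS 2 (-2.62, edgeR adjusted p = 0.130), and also without DSS 3, Con 2, Con 3, DSS+UA 1, DSS+UA 3 or any one UA+DSS library (-3.87 to -2.81, edgeR adjusted p = 0.0555 to 0.136, range 0.00690 to 0.136 over the alternatives). Without DSS 2, DSS against Con was 4.31. The position score moved the values furthest, to -5.22 for UA+DSS against DSS (edgeR adjusted p = 0.119), to 4.35 from 2.38 for DSS+UA against Con (edgeR adjusted p = 0.0778) and to -3.81 from -0.69 for UA+DSS against DSS+UA (edgeR adjusted p = 0.434). DESeq2 called DSS+UA against DSS (adjusted p = 0.0463). The mast cell markers summed to 0.444 to 8.64 CPM in the Con group, 11.4 to 31.9 CPM in the DSS group, 6.00 to 30.5 CPM in the UA+DSS group and 21.6 to 117 CPM in the DSS+UA group. The markers of regulatory T cells and type 2 lymphoid cells summed to 15.1 to 29.9, 42.0 to 57.8, 23.7 to 47.3 and 20.6 to 29.2 CPM in the same order. Most of this sum in the Con group was Rora and Ikzf2, at means of 10.2 and 8.70 CPM. Foxp3, Ctla4, Gata3 and Klrg1 had Con means of 0.606 to 0.934 CPM. Of the 7 mast cell markers 4 rose in DSS against Con, where 13.9% of all genes were called higher. None was called in UA+DSS against DSS, where 18.7% of all genes were called. Among the DSS libraries DSS 2, the highest in Il1rl1, had the lowest mast cell sum and the highest sum of the second list. The part of these cells in the Il1rl1 differences was not tested.

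Ligand and receptor kept no fixed balance between mice. The log2 ratio of Il33 to Il1rl1 counts was 3.16, -1.67 and -0.643 in the Con libraries and 1.26, -1.66 and -0.983 in the DSS libraries, with -0.611, 0.779 and -1.48 in the UA+DSS libraries. It was -0.278, -0.439 and -0.636 in the DSS+UA libraries, which lay closest together. The groups overlapped and no difference between them was detected (F = 0.158, exact permutation p = 0.970, adjusted over 4 ratios 0.970).

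Il18 (ENSMUSG00000039217, chr9:50554827-50581840, plus strand) was the one ligand that did not rise with DSS. It was at 122, 43.7 and 29.0 CPM in the Con libraries, 33.2, 24.7 and 40.9 CPM in the DSS libraries, 34.1, 12.7 and 33 CPM in the UA+DSS libraries and 52.2, 112 and 94.7 CPM in the DSS+UA libraries. The Con libraries spread over the whole range of the DSS+UA libraries and overlapped both other groups, and each DSS+UA library lay above each DSS and each UA+DSS library. On the log2 scale the change was -0.98 (95% interval -2.17 to 0.216, edgeR adjusted p = 0.197) for DSS against Con and -0.31 (-1.50 to 0.878, edgeR adjusted p = 0.727) for UA+DSS against DSS. It was 1.39 (0.187 to 2.59, edgeR adjusted p = 0.120) for DSS+UA against DSS and -1.70 (-2.91 to -0.485, edgeR adjusted p = 0.0573) for UA+DSS against DSS+UA. DESeq2 called both of these (adjusted p = 0.0479 and 0.00908). The last was also called without Con 1 (edgeR adjusted p = 0.0183) or Con 3 (edgeR adjusted p = 0.0424), and with the position score it was 0.16 (edgeR adjusted p = 0.948, range 0.00908 to 0.948 over the alternatives). The 8 epithelial markers summed to 9075, 22536 and 16428 CPM in the Con libraries, to 4787 to 10526 CPM in the DSS group, 18850 to 23016 CPM in the UA+DSS group and 10250 to 14923 CPM in the DSS+UA group. Con 1 had the lowest epithelial sum of the Con group and the most Il18, and the UA+DSS group had the highest median epithelial sum and the lowest mean of Il18. Within the Con group Muc2 spanned 741 to 6633 CPM, Car1 769 to 3796 and Krt20 298 to 1469, while Epcam spanned 1700 to 2201 CPM. The sum is weighted to such abundant genes and is not a plain measure of epithelial content. The 4 libraries with the most Il18 were Con 1 and the DSS+UA libraries, with position scores of 4.11 to 5.53. With the position score as a covariate DSS+UA against DSS was 0.76 (edgeR adjusted p = 0.315). The part of epithelial content or of position in the Il18 differences was not tested, and position and UA regimen cannot be told apart.

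Il18bp (ENSMUSG00000070427, chr7:102014885-102018690, minus strand) encodes the soluble inhibitor of IL-18. It was at 6.15, 7.32 and 9.30 CPM in the Con libraries, 24.1, 18.9 and 8.24 CPM in the DSS libraries, 22.3, 16.4 and 9.09 CPM in the UA+DSS libraries and 8.37, 30.5 and 11.4 CPM in the DSS+UA libraries. All 4 groups overlapped. The log2 fold change was 1.17 (95% interval 0.0111 to 2.33, edgeR adjusted p = 0.120) for DSS against Con, -0.10 (-1.24 to 1.04) for UA+DSS against DSS and -0.029 (-1.17 to 1.11) for DSS+UA against DSS. Of its exon bases, 2.64% overlap Numa1 on the other strand, which had mean levels of 114 to 199 CPM in the 4 groups, and without a stated use of strand the reads of that stretch cannot be told apart. The log2 ratio of Il18 to Il18bp counts had means of 2.84 ± 1.35 in the Con group, 1.05 ± 1.09 in the DSS group, 0.699 ± 1.12 in the UA+DSS group and 2.52 ± 0.594 in the DSS+UA group (SD, n = 3 each). The groups overlapped and no difference was detected (F = 2.92, exact permutation p = 0.111, adjusted over 4 ratios 0.148).

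**Figure D4:**
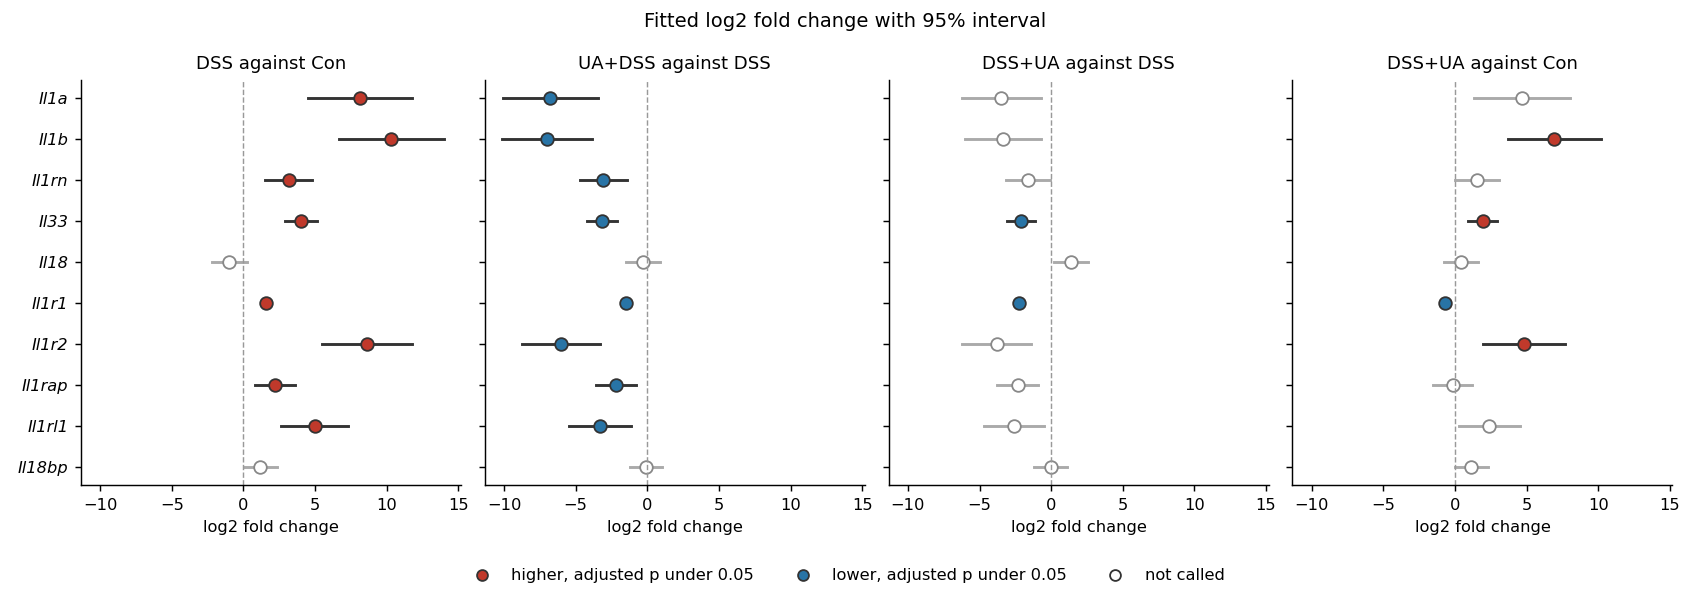
Fitted log2 fold change (x axis) of the 10 genes in 4 comparisons, with points filled where the edgeR adjusted p was under 0.05 and bars for the 95% interval. The interval of Il1r1 is narrower than its point in all 4 panels, whereas those of Il1a, Il1b and Il1r2 span several log2 units.

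To compare levels between genes, CPM was divided by exon length in kilobases. In the Con group the highest was Il18 at a mean of 62.9 CPM per kb (28.2 to 118), far above Il1rn at 8.31 (5.87 to 12.1) and Il1r1 at 6.74 (5.98 to 7.16), and the lowest were Il1b at 0.448, Il1r2 at 0.232 and Il1a at 0.151 CPM per kb. The ranges of Il1rn and Il1r1 overlapped, so their order was not clear of the spread. In the DSS group the order was led by Il1b at 573 CPM per kb (62.9 to 1579), then Il1r2 at 93.0 (10.8 to 253), Il1rn at 74.7 (21.8 to 178) and Il1a at 44.9 (4.31 to 124). The ranges of these 4 genes overlapped one another, but Il1b was first within each DSS library. Il18 at 32.0, Il33 at 29.7, Il1rl1 at 24.1 and Il1r1 at 19.7 CPM per kb followed, and the ranges of each pair of neighbours in this order overlapped as well. This order rests on DSS 2. Over DSS 1 and 3 alone Il1b led at 70.6 CPM per kb, followed by Il18 at 36.0, Il33 at 28.6, Il1rn at 23.0, Il1r1 at 19.6 and Il1rl1 at 15.1, with Il1r2 at 13.1 and Il1a at 5.09. In the UA+DSS group Il18 again led at 25.8 CPM per kb (12.3 to 33), and Il1b at 4.48 (1.11 to 6.83) stood below Il18bp at 5.26 (3.0 to 7.36), whose ranges overlapped. In the DSS+UA group Il18 at 83.7 CPM per kb (50.6 to 109) and Il1b at 55.3 (35.7 to 89.4) overlapped at the top. Within each of these libraries Il18 was above Il1b, at 50.6 against 35.7, 109 against 40.8 and 91.8 against 89.4. Il1rap was last in the DSS and DSS+UA groups, at 4.69 and 0.921 CPM per kb, and Il1a last in the Con and UA+DSS groups.

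**Figure D5:**
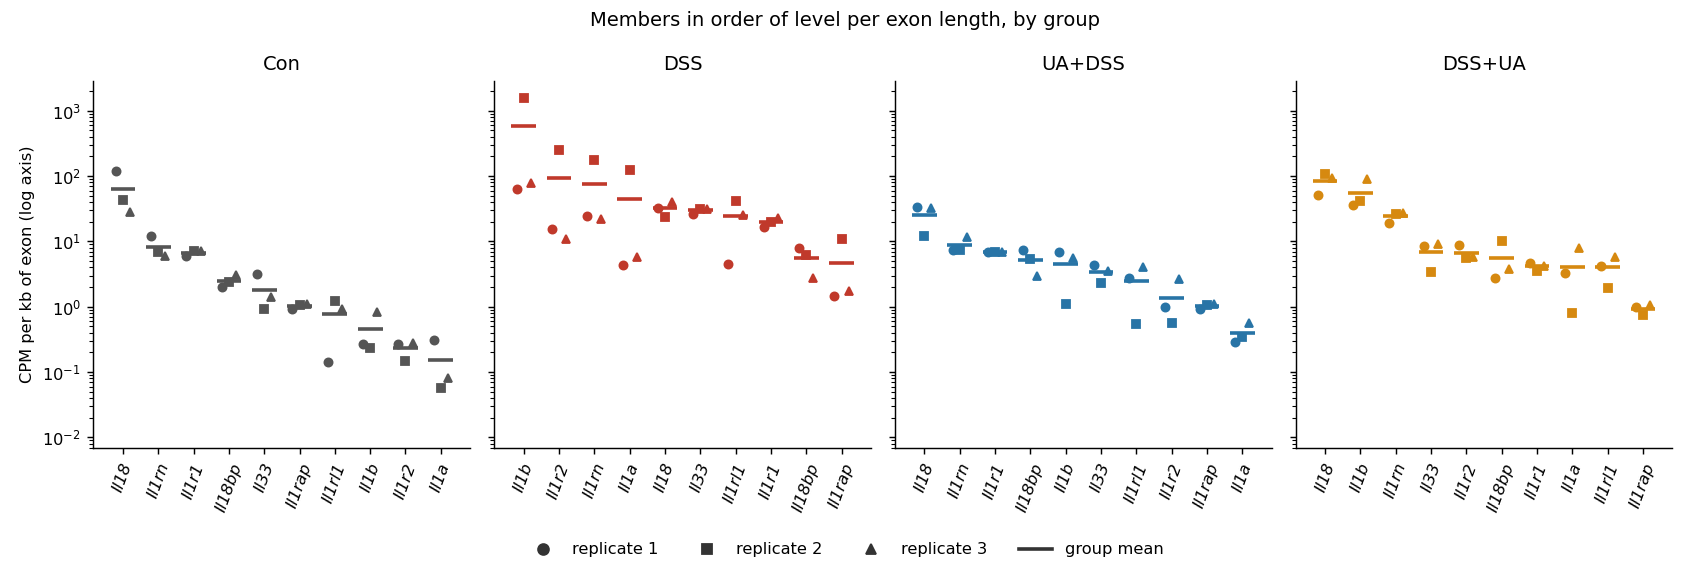
CPM per kb of exon (log axis) of the 10 genes, ordered within each group by the mean of 3 libraries (bars), with points for the libraries. Il18 was first in the Con, UA+DSS and DSS+UA groups, and Il1b rose from 0.448 CPM per kb in the Con group to 573 in the DSS group.

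The UA groups were compared with each other and with the Con group. They differ in the start of UA, in its number of days and in position score, which cannot be told apart. In UA+DSS against Con none of the 10 genes was called by edgeR, with 2 at an unadjusted p under 0.05, and none by limma-voom. DESeq2 called none of the 6 genes to which it gave an adjusted p, which leaves out Il1a, Il1b, Il1rn and Il1r2. Over all genes edgeR called 0.00566% (1 gene) in this comparison, and 20.6% had no overlap. Il1b and Il1r2 had no overlap there, with log2 fold changes of 3.31 (95% interval 0.413 to 6.21, edgeR adjusted p = 0.365) and 2.57 (-0.311 to 5.45, edgeR adjusted p = 0.457). For Il1r1 the interval was narrow, 0.054 (-0.280 to 0.388), and for Il33 it was 0.89 (-0.119 to 1.89). In DSS+UA against Con 4 genes were called, 3 higher and 1 lower, where 18.1% of all genes were called, 9.13% higher and 8.95% lower. Il1b (6.93, SE 1.47, edgeR adjusted p = 0.0132), Il33 (1.93, SE 0.46, edgeR adjusted p = 0.0199) and Il1r2 (4.83, SE 1.29, edgeR adjusted p = 0.0295) were higher and Il1r1 was lower. Il1a stood at 4.69 (edgeR adjusted p = 0.0543) and was called without DSS 1, DSS 2 or DSS 3 (edgeR adjusted p = 0.0380, 0.00606 and 0.0434), and Il1rn at 1.54 (edgeR adjusted p = 0.143) was called without DSS 2 (edgeR adjusted p = 0.00605). The Il1b call was lost without Con 2 (6.64, edgeR adjusted p = 0.0502, range 0.00229 to 0.0839 over the alternatives), and its value was 7.76 without Con 3. The Il33 call was lost without Con 2, Con 3, DSS+UA 1 or DSS+UA 3 (1.62 to 1.77, edgeR adjusted p = 0.0537 to 0.0717, range 0.000500 to 0.0803 over the alternatives), and its value was 2.57 without Con 1. The Il1r2 call was lost without any one Con or DSS+UA library (4.6 to 4.99, edgeR adjusted p = 0.0507 to 0.0903, range 0.00190 to 0.186 over the alternatives). Of the 10 genes 7 had no overlap, 6 higher and 1 lower, against 38.9% of all genes. With the position score none of the 4 calls held.

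In UA+DSS against DSS+UA only Il1r1 was called among the 10 genes, where 16.8% of all genes were called, 7.54% higher and 9.23% lower. The log2 fold changes were -3.62 for Il1b (edgeR adjusted p = 0.0648), -3.30 for Il1a (edgeR adjusted p = 0.116), -2.26 for Il1r2 (edgeR adjusted p = 0.166) and -1.45 for Il1rn (edgeR adjusted p = 0.174). For these 4 genes and Il18 each UA+DSS library was below each DSS+UA library, so that 6 of the 10 genes had no overlap, against 45.3% of all genes. Without DSS 2, a library of neither group, Il1b, Il1a, Il1r2 and Il1rn were called lower in the UA+DSS group (edgeR adjusted p = 0.00936, 0.0174, 0.0123 and 0.00917) at log2 fold changes of -3.65, -3.32, -2.29 and -1.47. Il1b was also called without DSS 1 (edgeR adjusted p = 0.0453) or DSS 3 (edgeR adjusted p = 0.0494). With the position score the values were -4.14 for Il1b, -0.90 for Il1a, -1.77 for Il1r2 and -0.47 for Il1rn. None of these was called (edgeR adjusted p = 0.608, 0.947, 0.834 and 0.914).

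The genes whose log2 CPM followed a member most closely over the 12 libraries were found by Pearson correlation, as a description, since the 3 libraries of a group share their treatment. Il1b was followed by Clec4e (r = 0.983), a lectin receptor of myeloid cells, and by the neutrophil-attracting chemokines Cxcl3 (0.981) and Cxcl2 (0.980). Il1r1 was followed by Acvr1 (0.980), a type I receptor of the BMP and activin family, Lrrc8c (0.968), a subunit of volume-regulated anion channels, and Apold1 (0.961), a gene of endothelial cells. Il33 was followed by Il1rl2 (0.956), the IL-36 receptor of the same family, Tnfsf11 (0.953), which encodes RANKL, and Il11 (0.950), a cytokine of stromal cells. Il18 was followed by Mgat4a (0.967), an enzyme of glycan branching, Gm3362 (0.952) and Prdx6 (0.929), a peroxiredoxin. The mean levels of Acvr1 were 18.4 CPM in the Con group, 18.4 in the UA+DSS group, 24.5 in the DSS group and 16.2 in the DSS+UA group.

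The rest of the pathway was read from a list of 57 genes, of which 46 passed the filter. In DSS against Con 23 of the 46 rose and 7 fell, and in UA+DSS against DSS 4 rose and 18 fell. In DSS+UA against DSS 2 rose and 3 fell, in DSS+UA against Con 9 rose and 2 fell, in UA+DSS against DSS+UA 1 was lower, and in UA+DSS against Con none was called, with 10 at an unadjusted p under 0.05. Over all genes 26.5%, 18.7%, 7.54%, 18.1%, 16.8% and 0.00566% were called in these comparisons. The median log2 fold changes of the list were 0.89, -0.62, -0.52, 0.53, -0.22 and 0.28 in this order, and those of all genes -0.034, -0.019, 0.020, -0.028, 0.014 and -0.0053. In DSS+UA against DSS the share of the list was thus near that of all genes, and in UA+DSS against DSS+UA below it. Without DSS 2 the counts of calls were 25, 11, 0, 20, 6 and 0, with the position score 33, 0, 0, 4, 0 and 0, without Con 1 22, 21, 5, 3, 2 and 0, and with library size alone as the scaling 29, 21, 4, 9, 0 and 0. All calls of the list in UA+DSS against DSS were thus lost with the position score, and all those in DSS+UA against DSS were lost both with it and without DSS 2.

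Among the other ligands only Il1f9, which encodes IL-36γ of epithelial and myeloid cells, passed the filter. It had 4, 0 and 0 counts in the Con libraries, 83, 5255 and 110 in the DSS libraries, 3, 1 and 13 in the UA+DSS libraries and 45, 25 and 107 in the DSS+UA libraries, so DSS 2 led here too. It rose in DSS against Con (10.19, SE 2.12, edgeR adjusted p = 0.00803) and was lower in UA+DSS against DSS (-8.08, SE 1.83, edgeR adjusted p = 0.0174), on 4 counts in the Con group. Without DSS 2 these values were 5.98 and -3.89. With the position score the second was -5.10 and lost its call (edgeR adjusted p = 0.750). The squamous epithelium markers, given beside Il1rn, moved with Il1f9 too, and their part was not tested. Il1f5 had no count in any library, which allows up to 3 counts in each, and Il1f6, Il1f10 and the receptor gene Il1rapl1 had at most 27, 2 and 7 counts in a group. Il1f8, which encodes IL-36β, had 7, 31 and 6 counts in the UA+DSS libraries, 2 in all in each of the Con and DSS+UA groups and none in the DSS group, too few to be tested. Of the other receptors, Il18rap, the accessory chain of the IL-18 receptor, rose from a mean of 1.99 to 36.9 CPM (4.21, SE 0.94, edgeR adjusted p = 0.0106) and was at 3.0 CPM in the UA+DSS group (-3.62 against DSS, edgeR adjusted p = 0.0242). DSS 2 held 93.7 CPM of it, against 8.03 and 8.98 CPM in DSS 1 and 3. Without it the values were 2.09 and -1.51, and the second call was lost (edgeR adjusted p = 0.0592). That call was also lost with the position score (-4.11, edgeR adjusted p = 0.171). Il1rl2, at 13.7, 14.5 and 13.9 CPM in the DSS libraries, rose from a mean of 4.24 CPM (1.73, SE 0.39, edgeR adjusted p = 0.00949). In UA+DSS against DSS it was lower (-1.66, edgeR adjusted p = 0.0176), a call lost with the position score (-0.81, edgeR adjusted p = 0.340). Il18r1, the ligand-binding chain for IL-18, was at 2.27 and 7.16 CPM in the Con and DSS groups (1.66, SE 0.62, edgeR adjusted p = 0.0699). Sigirr, an inhibitory receptor of the family, went the other way. It fell from 36.9, 31.1 and 32.1 CPM in the Con libraries to 20, 18.9 and 23.3 CPM in the DSS libraries (-0.69, SE 0.15, edgeR adjusted p = 0.00817) and was higher than in DSS in both the UA+DSS group (0.60, edgeR adjusted p = 0.0203) and the DSS+UA group (0.65, edgeR adjusted p = 0.0310). Both calls were lost without DSS 2 (edgeR adjusted p = 0.0663 and 0.0881), with library size alone as the scaling (0.0504 and 0.0718) and with the position score (0.137 and 0.0738).

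Of the 9 tested genes of cytokine maturation, 2 rose and 3 fell in DSS against Con, and 3 rose and 1 fell in UA+DSS against DSS. Over all genes 26.5% and 18.7% were called in these comparisons. The inflammasome sensor Nlrp3 rose from a mean of 0.640 to 88.4 CPM (7.09, SE 1.33, edgeR adjusted p = 0.00554), with 243 CPM in DSS 2 against 9.28 and 12.7 CPM in DSS 1 and 3. In UA+DSS against DSS it was lower (-6.03, edgeR adjusted p = 0.0145). Without DSS 2 these log2 fold changes were 4.09 and -3.03. With the position score the second was -6.29 and lost its call (edgeR adjusted p = 0.159). The adaptor Pycard, which links sensor and caspase, fell from 159 to 59.6 CPM (-1.42, SE 0.27, edgeR adjusted p = 0.00519), with 67.0, 44.2 and 67.5 CPM in the DSS libraries, and was higher in both the UA+DSS (1.10, edgeR adjusted p = 0.0199) and the DSS+UA group (1.26, edgeR adjusted p = 0.0265). The last 2 calls were lost without DSS 2 (edgeR adjusted p = 0.0606 and 0.0707) and with the position score (0.105 and 0.0705). Sensor and adaptor moved in opposite directions in DSS against Con. Prtn3, a neutrophil protease, rose from 6 counts in the Con group to 80 in the DSS group (3.55, SE 0.83, edgeR adjusted p = 0.0117).

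Of the 17 adaptors and kinases, 5 rose and 3 fell in DSS against Con, where 26.5% of all genes were called. In UA+DSS against DSS 3 fell, where 18.7% of all genes were called. The NF-κB subunit genes Nfkb1 (81.7 to 142 CPM, log2 fold change 0.80, edgeR adjusted p = 0.0110) and Rela (45.5 to 80.1 CPM, 0.82, edgeR adjusted p = 0.0117) rose, and Peli1, a ubiquitin ligase of the pathway, fell (84.5 to 54.1 CPM, -0.64, edgeR adjusted p = 0.0114). Their changes were under 1 log2 unit, below those of the 8 called members in this comparison. Of the 15 tested genes listed as induced by IL-1 or IL-33, 13 rose in DSS against Con and none fell, and 11 fell in UA+DSS against DSS. Over all genes 13.9% were called higher in the first comparison and 10.5% lower in the second. What induced the listed genes here was not tested. The chemokine gene Cxcl1 rose from 0.477 to 48.0 CPM (6.63, SE 0.92, edgeR adjusted p = 0.00234), and was lower in UA+DSS against DSS (-4.62, edgeR adjusted p = 0.0101) and against DSS+UA (-2.49, edgeR adjusted p = 0.0473). The last call was lost with library size alone as the scaling (-2.44, edgeR adjusted p = 0.0569). With the position score both UA+DSS calls were lost (-3.77 and -1.11, edgeR adjusted p = 0.154 and 0.825). The adhesion molecule gene Icam1 rose from 7.93 to 75.4 CPM (3.25, SE 0.47, edgeR adjusted p = 0.00243) and was lower in DSS+UA against DSS (-1.74, edgeR adjusted p = 0.0431), a call lost without DSS 2 (-0.93, edgeR adjusted p = 0.109) and with the position score (-1.75, edgeR adjusted p = 0.0905). Icam1 was also lower in UA+DSS against DSS (-2.41, edgeR adjusted p = 0.0116). That call was kept without DSS 2 (-1.62, edgeR adjusted p = 0.0143) and lost with the position score (-2.40, edgeR adjusted p = 0.142). Saa3, an acute phase gene, rose from 1.38 CPM by a log2 fold change of 9.99 (SE 1.49, edgeR adjusted p = 0.00279). It was at 39.8, 43.0 and 209 CPM in the UA+DSS libraries, all above the Con libraries (6.14, SE 1.28, edgeR adjusted p = 0.166). Against DSS it was lower in the UA+DSS group (-3.85, edgeR adjusted p = 0.0384). This call was lost without DSS 2 (-2.25, edgeR adjusted p = 0.151) and with the position score (-5.86, edgeR adjusted p = 0.148).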

How the data were processed

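Colon RNA of 12 mice was sequenced, 3 per group, with groups and replicate numbers taken from the sample labels. The authors deposited raw counts, whole numbers of reads for each Ensembl gene. Per the labels and methods, reads were checked with FastQC and mapped to GRCm38 with HISAT2, and Cuffdiff is also listed. The sources used here do not state the tool versions, the counting program, whether strand was used or how reads that match more than 1 gene were counted. RNA was taken with Trizol per the labels and with an RNeasy kit per the methods, with RIN above 8.

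The 17658 genes kept by filterByExpr of edgeR 4.0.16 (R 4.3.3) were scaled by TMM and fitted with 1 robust quasi-likelihood model of the 12 libraries, and the 6 pairs of groups were tested with Benjamini-Hochberg adjustment. The depth of 15566216 to 19498383 counts leaves genes of a few counts imprecise. The script was tested on simulated data. Ratios within a library (0.5 added to each count) were tested by the exact permutation of F over 369600 groupings, with a smallest p of 6.49e-05, in Python 3.11.15 with numpy 2.4.6 and pandas 2.3.3. The counts of any pair of libraries in a group differed beyond sampling noise (chi-square of 20.9 to 227 per degree of freedom), so none was taken for a duplicate. Gene positions and exon lengths are those of GENCODE M21.

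The members and lists were chosen with earlier results of these data known. The named genes were the 10 members, all other family ligands and receptors, the 3 smallest p of DSS against Con in each other part of the pathway list, and the 3 genes most correlated with Il1b, Il1r1, Il33 and Il18 (mean log2 CPM of at least 1, prior count 2). Other genes named with values are overlapping partners and single genes of the cell type lists, such as Ly6g, Muc2 and Rora, which were named outside this rule. Cell type lists are general markers. Alternatives were library size or upper-quartile scaling, DESeq2 1.42.0, limma-voom (limma 3.58.1), dropping the filter or requiring 10 counts or more in all samples, a fit of only the 2 groups at hand, a block for the replicate number, the position score as a covariate and leaving out each library. Alternatives for the pathway list, the neutrophil sum without Ly6g and the level order without DSS 2 were added after the values were seen.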

Additional observations from a re-analysis of the deposited data

Results flagged for a closer look

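Il1r1 differed between the UA+DSS and DSS+UA mice. Both were compared with the same DSS libraries, and the test of the difference itself, UA+DSS against DSS+UA, gave a log2 fold change of 0.76 (SE 0.15, edgeR adjusted p = 0.0115), with every UA+DSS library (44.5 CPM each) above every DSS+UA library (22.2 to 29.9 CPM). With the position score as a covariate the value was 0.38 (edgeR adjusted p = 0.563), and without UA+DSS 2 it was 0.76 (edgeR adjusted p = 0.0510). Over 21 alternatives the adjusted p ranged from 0.000585 to 0.563 and 19 kept the call. The groups differ in position score without overlap, so regimen and position cannot be told apart.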

How the results depend on the processing

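Of 1218 values of single genes under the alternatives, 1078 kept their direction and side of the threshold, 80 lost a call, 29 gained one and 31 changed sign, none of them called before or after. The counts of called genes moved as follows, and the causes were not tested beyond what each alternative removes. DESeq2, which gives no adjusted p for Il1a, Il1b, Il1rn and Il1r2, called 4 in DSS against Con, and 4 in UA+DSS and 5 in DSS+UA, each against DSS. It called 2 in DSS+UA against Con and 2 in UA+DSS against DSS+UA. The filter of 10 counts in every sample, which removes Il1a, Il1b and Il1r2, left 5, 5 and 2 in DSS against Con, UA+DSS against DSS and DSS+UA against Con. In UA+DSS against DSS limma-voom called 5, no filter 4, a fit of only the 2 groups 4 and the position score 1. The position score called 0 in DSS+UA against Con and 0 in UA+DSS against DSS+UA, and the fit of only the 2 groups called 6 in the latter. Without any 1 library the counts were 6 to 8 in DSS against Con, 2 to 8 in UA+DSS against DSS (2 when UA+DSS 2 was left out, 4 when either of the other two was), 1 to 4 in DSS+UA against DSS, 0 in UA+DSS against Con, 1 to 6 in DSS+UA against Con and 0 to 5 in UA+DSS against DSS+UA. With the position score the sign changed for Il18 in UA+DSS against DSS (0.92), DSS+UA against Con (-0.23) and UA+DSS against DSS+UA (0.16), for Il33 in UA+DSS against DSS+UA (0.54), for Il1r1 in UA+DSS against Con (-0.15), for Il18bp in DSS+UA against DSS (0.0076) and for Il1rap in UA+DSS against Con (-0.18), DSS+UA against Con (0.012) and UA+DSS against DSS+UA (-0.19). Il1rap in UA+DSS against Con was also -0.0091 with library size alone, -0.029 with upper-quartile factors and -0.0029 with the filter of 10 counts, and Il18bp in UA+DSS against DSS+UA was 0.025 with library size alone and 0.068 with limma-voom. Leaving out 1 library turned the sign of Il18 (-0.53 to 0.026) and Il18bp (-0.44 to 0.23) in UA+DSS against DSS, of Il1rn (-2.05 to 0.082) and Il18bp (-0.83 to 0.32) in DSS+UA against DSS, of Il1rn (-0.17 to 0.47), Il1r1 (-0.024 to 0.095) and Il1rap (-0.049 to 0.086) in UA+DSS against Con and of Il18bp (-0.42 to 0.66) in UA+DSS against DSS+UA. The adjusted p of each of the 4 ratios stayed on its side of the threshold with 2 added to each count, with the replicate block and without any 1 library. Those were the only alternatives run for the ratios, so the position score was not used with them.

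The replicate numbers share only a number. The correlations of same-numbered libraries were -0.216 to 0.187, and 5 of 12 libraries correlated best with their own number. With the replicate number as a block the calls were 7, 6, 2, 0, 4 and 1, for DSS against Con, then UA+DSS and DSS+UA against DSS, then both against Con, then the UA groups against each other. The block gave adjusted p of 0.00694, 0.0208, 0.938 and 0.137 for the ratios by exact permutation.

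With library size alone as the scaling factor the log2 fold change over all genes had a median of -0.117 in UA+DSS against DSS and -0.114 in DSS+UA against DSS, and the share of calls that were higher in the latter went from 33.7% to 12.2% (24.8% with upper-quartile factors). Depth limits the Con levels of Il1a, Il1b and Il1r2, at 17, 48 and 25 counts.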
